A study of Mus musculus with 16 samples.

Results

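The replication-dependent histone genes of mouse embryonic stem (ES) cells were taken by name, as every gene symbol of the Hist1, Hist2, Hist3 and Hist4 clusters in the deposited tables. After 1 pseudogene name was left out, 67 genes remained, of the 24347 gene names that the Pml table lists and the 24421 of each other table. They comprise 6 linker histone H1 genes, 18 H2A, 18 H2B, 12 H3 and 13 H4 genes. The Hist1 cluster on chromosome 13 holds 54 of them, Hist2 on chromosome 3 holds 10, Hist3 on chromosome 11 holds 2, and Hist4 on chromosome 6 holds 1.

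RNA-seq libraries were made from total RNA of E14Tg2a.IV ES cells, a feeder-free line grown with serum and LIF, whose strain the labels give as C57BL/6; a second line, CCE, is named in the culture description but on no sample. There were 16 libraries in 8 groups of 2, in 3 tables that were normalised separately, so tests stay within a table. One table holds untreated wild-type cells and untreated Pml knockout cells; PML is the scaffold protein of PML nuclear bodies. The second holds wild-type cells left untreated or exposed for 2 h to sodium arsenite at 200 µM, which causes oxidative stress. The third holds cells labelled wild type or knockout for Trim33, a chromatin-bound partner of SMAD proteins, each given 50 ng/ml activin A, which activates SMAD2 and SMAD3, or 10 µM SB431542, which blocks its type I receptors, for 2 h. The sources used here do not say how the knockouts were made or whether each is 1 clone. Nothing in the labels ties the libraries of a group to separate cultures; the p-values below thus measure only how these samples spread, which may be technical.

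The labels and the data went apart in the third table. Trim33 read 20.1 and 23.5 RPKM (reads scaled to gene length and library size) in the activin A libraries labelled wild type, and 2.53 and 2.79 in the activin A libraries labelled knockout. With SB431542 it read 2.94 and 2.44 RPKM in the libraries labelled wild type and 18.3 and 24.6 in those labelled knockout. Trim33 therefore contradicts the genotype label in all SB431542 libraries. "Trim33-low" here joins the activin A libraries labelled knockout to the SB431542 libraries labelled wild type, and "Trim33-high" joins the activin A libraries labelled wild type to the SB431542 libraries labelled knockout. Eif2s3y, a Y-linked gene, read 39.5 ± 1.26 RPKM in Trim33-high and 0.0682 ± 0.0585 in Trim33-low libraries (SD, n = 4), so a difference between cell lines other than Trim33 cannot be told apart from it. In the Pml table, in FPKM (the fragment-based form of the same unit), Pml itself read 49.8 and 45.1 in wild type against 32.0 and 33.5 in knockout, and Eif2s3y fell there too, from 18.4 ± 3.10 to 0.927 ± 0.247 FPKM (SD, n = 2). Recovered reads per library lay between 46800000 and 48500000 in the arsenite table and between 31200000 and 39500000 in the Trim33 table, while the depth behind the Pml table is unknown. The 5 ES cell markers Pou5f1, Nanog, Sox2, Zfp42 and Esrrb were each at 1 or more in all libraries.

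Replication-dependent histone genes are transcribed in S phase, when newly copied DNA has to be packaged. Histones H2A, H2B, H3 and H4 form the nucleosome core, and H1 binds the linker DNA between nucleosomes. Their mRNAs have no introns as a rule and end in a conserved stem-loop in place of a poly(A) tail. SLBP binds that stem-loop, the U7 snRNP with Lsm10 and Lsm11 helps cut the RNA after it, and the coactivator NPAT turns the clusters on at the start of S phase. Libraries that select for poly(A) therefore hold only a small part of these RNAs, and the labels name the kit (Illumina TruSeq RNA) without saying how mRNA was enriched.

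The stem-loop is the feature that sets these mRNAs apart, so it is shown first for the genes on which the results below turn. A run of 16 bases that opens with GG, closes with CC and pairs its outer 6 bases at either end was searched on the transcript strand within 150 bases after the stop codon of GENCODE M21 models (GRCm38, the assembly also called mm10). It was found in 46 of 67 genes, and most models without it stop within a few bases of the stop codon. The commonest form, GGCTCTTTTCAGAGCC, stood in 26 genes. In the stretches printed here, in the 5′ to 3′ direction, capitals mark the stem-loop:
Hist1h4i: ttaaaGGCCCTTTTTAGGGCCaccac
Hist1h4b: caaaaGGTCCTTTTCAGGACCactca
Hist1h3a: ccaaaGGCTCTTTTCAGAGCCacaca
Hist1h3c: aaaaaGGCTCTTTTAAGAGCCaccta
Hist1h2ag: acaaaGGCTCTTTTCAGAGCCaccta
Hist3h2a: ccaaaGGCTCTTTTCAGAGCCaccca
Hist3h2ba: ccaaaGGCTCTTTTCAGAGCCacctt
Hist4h4: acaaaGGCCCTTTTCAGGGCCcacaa
Hist1h1c: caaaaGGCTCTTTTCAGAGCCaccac
All 9 genes carry it between 25 and 55 bases after the stop codon. Their annotated 3′ ends differ more. The model of Hist1h2ag ends 23 bases after the stem-loop and that of Hist1h4b 28 bases after it, whereas those of Hist1h4i, Hist1h1c, Hist3h2a and Hist4h4 run on for 330, 840, 1643 and 2445 bases.

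Gene copies within a class are close in sequence, which bears on every value of a single gene. Over all members, a median of 54.1% of 50-base words also occurred in another annotated gene. The median was 1.12% for H1, 73.0% for H2A, 46.9% for H2B, 62.0% for H3 and 39.5% for H4. Only 13 genes were at least 80% unique, and 5 shared all of their words. The words are those of the GENCODE models. Some models are longer than the RefSeq length with which reads were recovered, as for Hist3h2a (2146 against 508 bases). The unique share of the counted bases may then be lower. The sources used here do not say how reads that fit several copies were counted, so levels of shared genes are uncertain. There are 8 genes listed at 0 in all 12 RPKM libraries: Hist1h2ao, Hist1h2ap, Hist1h2bq, Hist1h2br, Hist1h4m, Hist2h2aa1, Hist2h3c1 and Hist2h3c2. Between 63.5% and 100% of their words were shared, with a median of 93.3%, against 47.0% for the 59 genes above 0 in some RPKM library. Shares among those 59 genes ran from 0% to 100%, so a high share did not always go with a listing at 0. None of the 67 was exactly 0 throughout the FPKM table, but this does not show that each was detected. There Hist1h2ao rounded to 0 in every library, and Hist2h2aa1 and Hist2h3c1 reached at most 0.0002 and 0.0011 FPKM.

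Levels were low. The median of the members' mean levels was 1.35 FPKM in the Pml table, 0.631 RPKM in the arsenite table and 0.742 RPKM in the Trim33 table. A gene was tested where it reached 1 in at least 2 libraries of its table, which left 41 of 67 members in the Pml table, 27 in the arsenite table and 36 in the Trim33 table. A low gene can pass that filter only through the group in which it is high. Counts among tested members, and p-values of such genes, therefore describe them and support nothing on their own. Of 61 single-exon members, 45 gave whole reads in all 12 RPKM libraries (within 0.1 read), and these held 936 to 2405 reads per library together.

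In Trim33-low libraries the summed level of the histone genes was 1.88 times that in Trim33-high libraries, and 4 of the 5 class sums were apart between the groups. In Trim33-low it came to 137.6 and 158.4 RPKM (activin A) and to 150.1 and 167.7 (SB431542). In Trim33-high it came to 74.5 and 75.8 RPKM (activin A) and to 96.5 and 78.8 (SB431542). All Trim33-low libraries were thus above all Trim33-high ones. Without Hist1h4i, the highest gene, the sums were still apart, at 88.9 to 104 against 51.1 to 73.2 RPKM. H4 had the largest ratio of sums, 2.5 (2.08 without Hist1h4i), followed by H3 at 1.85, H1 at 1.66 and H2A at 1.57. The H2B sums overlapped, with a ratio of 1.23.

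**Figure D1:**
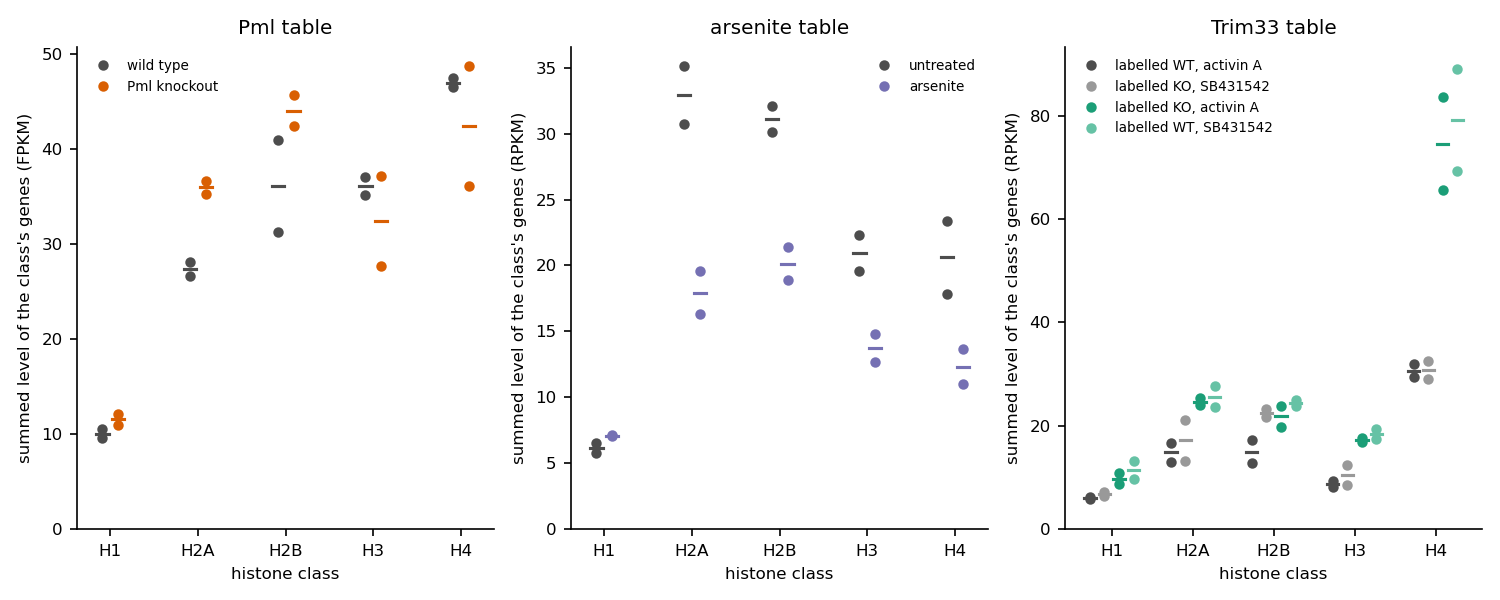
Summed level of the genes of each histone class in every library (points; FPKM in the Pml table, RPKM in the others) with the group mean (short lines), by class on the horizontal axis. Trim33-low libraries (green) lie above Trim33-high ones (grey) for H1, H2A, H3 and H4, arsenite lies below untreated for every core histone class, and in the Pml table the classes do not go one way.

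Of the 36 members tested in the Trim33 table, 14 were higher in Trim33-low libraries and 0 were lower, at an adjusted p under 0.05 in limma. Over all 11914 genes tested, 26.3% were called, 16.1% higher and 10.1% lower. The median log2 change of tested members was 0.44, against 0.01 over all genes. Counting every member, 47 of 67 had the higher mean in Trim33-low libraries, 12 had the lower one and the remaining 8 are those listed at 0. At an unadjusted p under 0.05 there were 19 members, against 39% of all genes. Groups did not overlap for 10 of the 36 tested members, all higher, against 19.1% of all tested genes that were apart upwards and 14.2% downwards. By class, 2 of 2 tested H1 genes rose, 3 of 7 H2A, 2 of 9 H2B, 2 of 6 H3 and 5 of 12 H4. The remaining tested members did not pass the test.

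Hist1h4i, one of the many genes that encode the same H4 protein, was the most abundant member. It read 48.7, 62.6, 53.2 and 63.8 RPKM in the 4 Trim33-low libraries and 19.7, 24.7, 23.3 and 17.1 in the 4 Trim33-high libraries. The lowest Trim33-low library was well above the highest Trim33-high one, and the log2 change was 1.39 ± 0.14 (SE, limma adjusted p = 0.000311). This rests on 681 to 975 reads in Trim33-low libraries against 231 to 311 in Trim33-high ones. Of the words of the 727-base GENCODE model of Hist1h4i, 71.1% occur in no other gene. Its reads were recovered with a RefSeq length of 403 bases, so that share may be lower for the counted bases. The single exon of this gene spans 22040636 to 22041362 of chromosome 13, minus strand, in GRCm38.

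Hist1h4b, another H4 gene, read 5.19, 6.04, 2.93 and 6.11 RPKM in Trim33-low libraries and 1.07, 1.64, 2.22 and 0.662 in Trim33-high ones. The groups did not overlap, and the log2 change was 1.34 ± 0.25 (adjusted p = 0.00547). Only 24.1% of its words are its own. Hist1h3a, an H3 gene, read 1.95, 2.68, 2.72 and 2.28 RPKM against 0.540, 0, 0.748 and 0.475. Here too the groups were apart, by 1.27 ± 0.17 (adjusted p = 0.00131), from 34 to 54 reads against 0 to 12. Hist1h3a passed the filter on low values only through the Trim33-low libraries, so this p-value is a description. Hist1h2ag, an H2A gene, read 3.30, 5.10, 3.11 and 5.70 RPKM against 1.595, 1.36, 1.79 and 0.631, a log2 change of 1.17 ± 0.22 (adjusted p = 0.00619). Of its words, only 21.1% are its own. Hist1h4j stood at 2.68, 1.66, 1.46 and 3.12 RPKM against 1.16, 0.308, 0.702 and 1.15, a log2 change of 0.82 ± 0.23 (adjusted p = 0.0296).

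**Figure D2:**
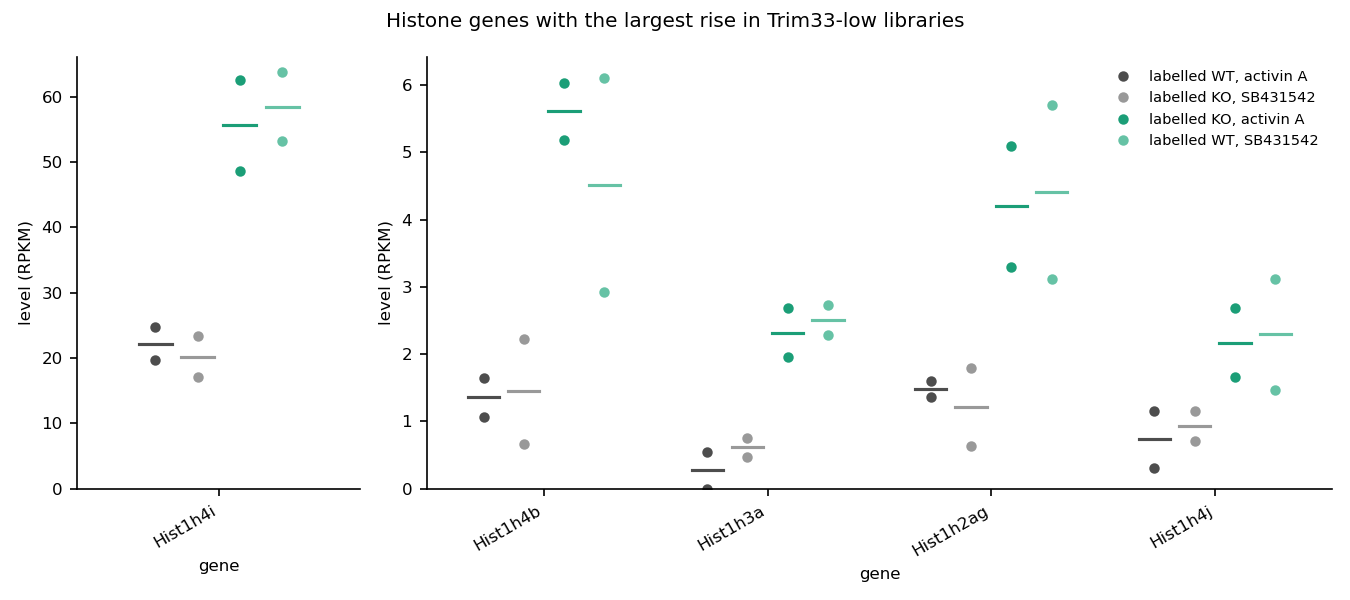
Levels (RPKM) of the 5 histone genes with the largest called rise whose groups were apart, in every library of the Trim33 table (points) with the mean of the 2 libraries of a labelled group (short lines); Hist1h4i has its own vertical axis. The 4 green Trim33-low points lie above the 4 grey Trim33-high points for each gene.

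Both tested linker histone genes rose. Hist1h1c, which encodes a somatic linker histone, ranged from 4.67 to 10.1 RPKM in Trim33-low libraries and from 3.93 to 4.56 in Trim33-high ones (log2 change 0.61 ± 0.19, adjusted p = 0.0427). Hist1h1a, another linker histone gene, ranged from 1.26 to 2.40 RPKM against 0.560 to 1.01 (0.62 ± 0.14, adjusted p = 0.0126). It too passed the filter only through the Trim33-low libraries. The other called members whose groups were apart were Hist1h2ab (0.80), Hist1h2ae (0.72) and Hist1h4c (0.78 on the log2 scale). Hist1h2bj (1.00), Hist1h3c (0.94), Hist4h4 (0.64) and Hist1h2bb (0.42) passed the test although their groups overlapped. For Hist1h2ab, Hist1h4c, Hist4h4 and Hist1h2bb, fewer than 2 Trim33-high libraries reached 1. These genes too passed the filter on low values only through the Trim33-low libraries, so their calls are descriptions. Each of 6 called members, Hist1h1c, Hist1h2ab, Hist1h2bb, Hist1h2bj, Hist1h4j and Hist4h4, lost its call in at least 1 fit without a single library; leaving out libraries 1 at a time gave 10 to 14 called members.

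The Hist3 genes did not follow the Hist1 cluster. Hist3h2a, an H2A gene and the second most abundant member in this table, read 7.83, 4.68, 4.34 and 5.53 RPKM in Trim33-low libraries and 6.05, 4.23, 7.39 and 6.22 in Trim33-high ones, and the groups overlapped. Its neighbour Hist3h2ba, an H2B gene, read 1.68, 5.15, 3.29 and 4.46 RPKM against 3.46, 4.30, 5.35 and 6.13, again overlapping. Neither passed the test (log2 changes of -0.09 ± 0.17 and -0.37 ± 0.24). Hist1h2bc, the most abundant H2B gene, read 5.51, 6.78, 6.48 and 3.74 RPKM against 4.98, 3.81, 6.99 and 4.66, and Hist1h3h, an H3 gene, 4.02, 2.97, 1.61 and 2.94 against 1.605, 2.04, 2.50 and 0.977; neither passed.

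Called genes stood side by side on chromosome 13. Gaps of over 100000 bases divide the Hist1 members into 4 stretches. In the stretch from 22035164 to 22043676, which holds 5 members, 3 of 4 tested genes rose: Hist1h4i, then Hist1h2ag 1097 bases on, then Hist1h2bj 269 bases after that. In the longest stretch, from 23531050 to 23764406 with 29 members, 9 of 20 tested rose, and 8 of these 9 lie between Hist1h4c and Hist1h1a at its end. In the first stretch, from 21715763 to 21837530 with 18 members, 1 of 8 tested rose. Over all genes tested, 16.1% were called higher. Median log2 changes of the tested members were 1.09, 0.48 and 0.13 in these stretches. The fourth stretch holds 2 genes, neither tested. These are descriptions, since neighbouring copies can share sequence and several of these genes passed the filter only through the Trim33-low libraries.

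**Figure D3:**
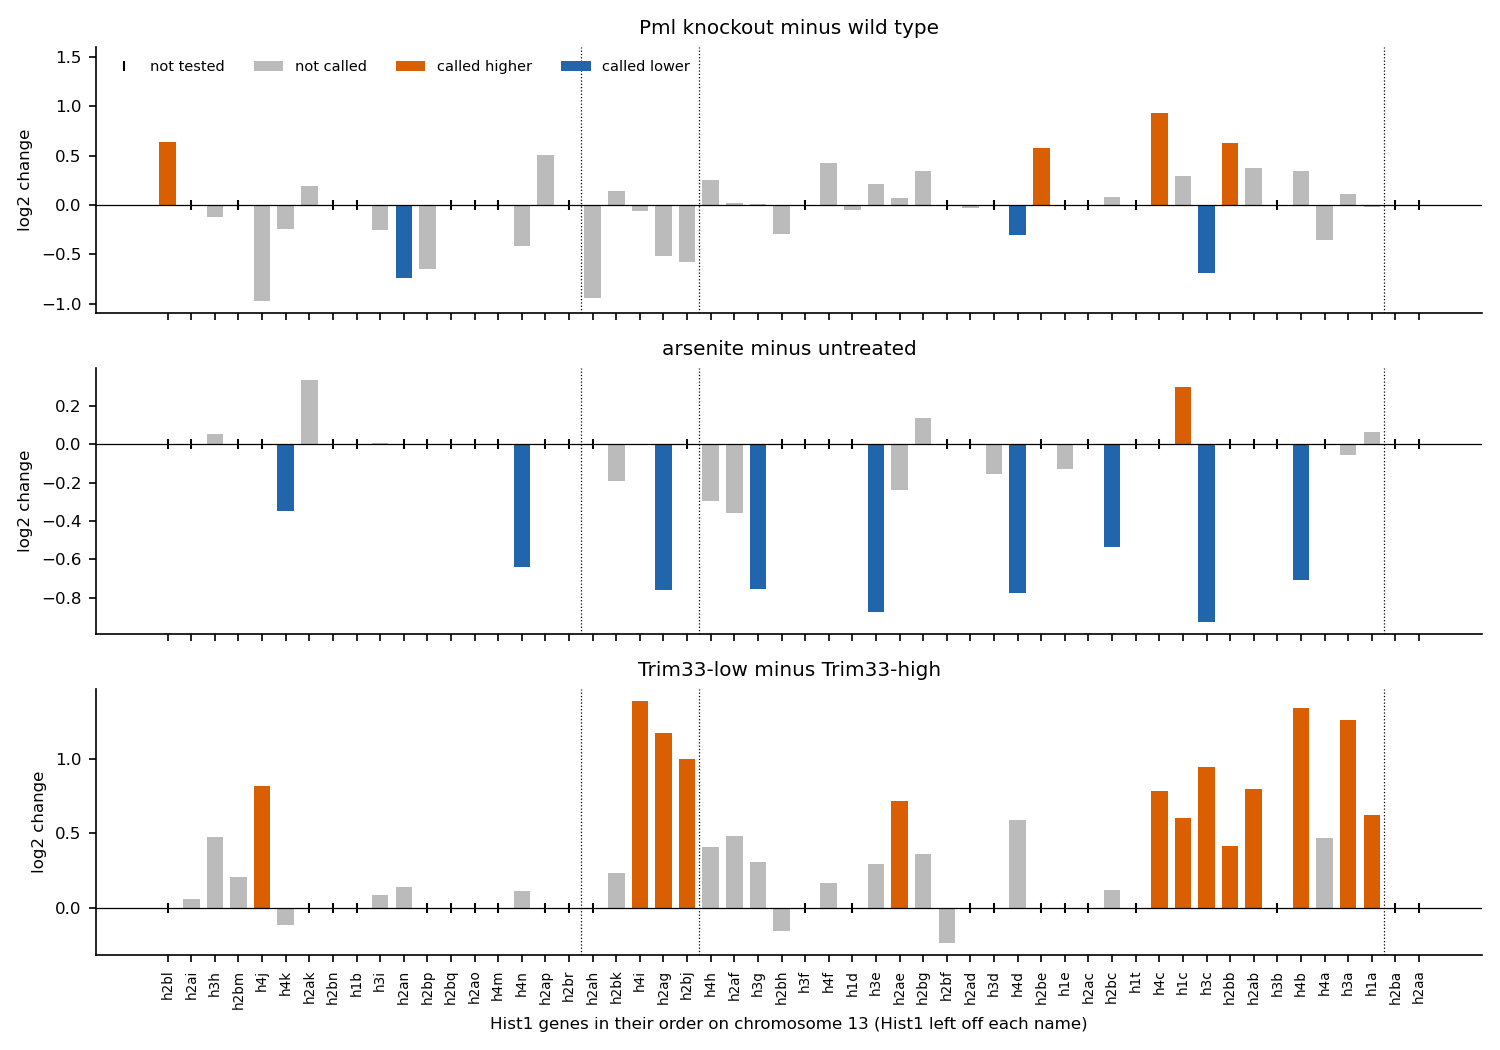
Log2 change of each Hist1 gene, in gene order along chromosome 13, in the 3 comparisons; orange bars were called higher, blue bars lower, grey bars were not called, ticks were not tested, and dotted lines mark gaps of over 100000 bases. In the lowest panel the 13 called Hist1 genes are all higher in Trim33-low libraries, with 3 neighbours in the short second stretch and 8 genes at the end of the third.

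Promoters were examined for motifs that members share, and a link of these motifs to the changes was not tested. RefSeq promoters (GRCm38.p6, 250 bases before to 50 after the start) matched 61 members with 62 promoters, since Hist1h2be has 2. On either strand, the octamer ATTTGCAT, a POU-factor motif, stood in 22.6% of them against 1.74% of all 32851 promoters, in 7 of 17 H2A and 7 of 17 H2B promoters and in no other class. CCAAT stood in 85.5% against 37.4%, in every H1, H2A, H2B and H3 promoter and in 3 of 12 H4 promoters, and TATAAA in 56.5% against 13.6%. The upstream sequences of 3 of the genes above follow, 5′ to 3′ on the gene's strand with those motifs in capitals (either strand). Hist1h4i (chr13:22041363-22041612, minus strand) shows the pattern common in H4, with TATAAA and no CCAAT. The sequence of Hist1h2ag (chr13:22042950-22043197, minus strand) fills the space between the RefSeq starts of Hist1h2ag and Hist1h2bj, which are transcribed away from each other and both rose. That of Hist3h2a (chr11:58954435-58954684, plus strand) has the octamer and CCAAT.
Hist1h4i: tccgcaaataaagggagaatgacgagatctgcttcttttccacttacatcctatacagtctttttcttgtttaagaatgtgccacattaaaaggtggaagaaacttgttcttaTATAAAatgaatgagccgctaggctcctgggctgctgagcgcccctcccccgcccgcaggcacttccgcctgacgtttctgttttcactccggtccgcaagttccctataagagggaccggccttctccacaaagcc
Hist1h2ag: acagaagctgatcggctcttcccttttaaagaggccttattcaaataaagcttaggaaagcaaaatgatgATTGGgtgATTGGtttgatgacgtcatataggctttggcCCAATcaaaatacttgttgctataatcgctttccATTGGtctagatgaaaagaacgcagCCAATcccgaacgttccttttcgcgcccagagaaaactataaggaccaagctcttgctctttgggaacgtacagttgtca
Hist3h2a: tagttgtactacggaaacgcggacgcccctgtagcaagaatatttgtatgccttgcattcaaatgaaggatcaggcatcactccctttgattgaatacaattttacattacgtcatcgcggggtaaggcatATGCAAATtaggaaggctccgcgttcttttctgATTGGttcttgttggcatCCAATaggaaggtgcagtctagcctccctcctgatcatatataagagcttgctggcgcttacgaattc
There were 13 such head-to-head pairs with at most 1000 bases between annotated starts. Both genes of a pair were tested in the Trim33 table for 2 pairs only: Hist1h2ag with Hist1h2bj, and Hist1h2ae (0.72, called) with Hist1h2bg (0.36, not called).

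Under either treatment more members had the higher mean in Trim33-low libraries: 42 against 16 with activin A and 45 against 13 with SB431542, of 67. With activin A, 5 of 36 members were higher in libraries labelled knockout than in those labelled wild type and 0 were lower, against 9.43% of all genes called (6.61% higher, 2.82% lower). The groups were apart upwards for 22 members (32.3% of all genes) and downwards for 0 (28.4%). The called genes were Hist1h4b (1.5 ± 0.35), Hist1h3a (1.41 ± 0.24), Hist1h4i (1.29 ± 0.19), Hist1h2bg (0.90 ± 0.23) and Hist1h1a (0.81 ± 0.20 on the log2 scale). Leaving out library 1 of knockout left 3 of these calls, and leaving out library 2 of knockout, or either library labelled wild type with activin A, left 1. With SB431542, 3 members were higher in libraries labelled wild type than in those labelled knockout and 0 were lower, against 9.56% of all genes (6.55% higher, 3.01% lower). The groups were apart upwards for 18 members (26.8% of all genes) and downwards for 4 (22.5%), namely Hist1h2bg, Hist1h2bh, Hist3h2a and Hist3h2ba. The called genes were Hist1h4i (1.5 ± 0.19), Hist1h2ag (1.30 ± 0.32) and Hist1h3a (1.12 ± 0.24). The count became 6 without the first library labelled knockout with SB431542 and 1 without the second labelled wild type with SB431542. Not all members went the same way under both treatments. Hist1h2bg, an H2B gene, read 0.683 and 1.67 RPKM in Trim33-low against 0.0649 and 0.207 in Trim33-high with activin A, and 0.928 and 0.926 against 1.15 and 1.22 with SB431542. The median log2 change of tested H2B genes was 0.41 with activin A and -0.18 with SB431542, and the ratio of Hist3 sums was 1.07 and 0.702. The test of a difference between these effects called 0 of 11914 genes; 76 genes (0.638%) had an unadjusted p under 0.05, among them 1 member, Hist1h2bg.

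Activin A against SB431542 gave no call among the members. Averaged over both Trim33 levels, 0 of 36 members and 0.109% of all genes were called, and 4 members had an unadjusted p under 0.05: Hist1h2bb, Hist1h2bg, Hist1h2bh and Hist1h4f, all lower with activin A, against 3.03% of all genes. Hist1h2bb, an H2B gene, read 0.823, 0.528, 0.123 and 0.262 RPKM in the activin A libraries and 1.55, 1.58, 0.830 and 1.22 with SB431542. The groups were apart, as for 0.554% of all genes downwards, but the log2 change of -0.69 ± 0.13 did not pass the adjustment (adjusted p = 0.184). Within Trim33-high and within Trim33-low libraries, 0 members were called as well, against 0.042% and 0.0504% of all genes. At an unadjusted p under 0.05 there were 4 and 2 members, against 2.02% and 1.64% of all genes. Within Trim33-high, groups were apart downwards for 9 members (12% of all genes) and upwards for 0 (9.25%). Within Trim33-low they were apart downwards for 8 members (11.3%) and upwards for 6 (11.6%). In bulk samples, fewer cells of a type and less RNA per cell cannot be told apart, here as in the comparisons below.

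Other genes of the pathway did not go one way in the Trim33 contrast. Of 21 tested factors of histone gene transcription and mRNA processing, 3 rose and 4 fell. Upf1, a helicase that takes part in histone mRNA decay, rose from 32.6 ± 2.65 to 52.1 ± 3.10 RPKM, and the cap-binding gene Ncbp1 fell from 76.2 ± 3.55 to 58.5 ± 1.99 (SD, n = 4). Slbp and Npat, named for their role after their values were seen, did not pass: Slbp stood at 91.7 ± 2.56 and 89.5 ± 6.41 RPKM and Npat at 8.81 ± 0.833 and 9.78 ± 1.35 in Trim33-low and Trim33-high libraries. Of 30 genes of DNA replication and S phase, 5 rose and 4 fell, with a median of -0.07; Gins2, a helicase subunit, rose by 0.51 and Ccne1, cyclin E1, fell by 0.47 on the log2 scale. Of 11 histone variant genes outside these clusters, 2 rose and 2 fell: H2afj rose by 0.75, H3f3b by 0.39, and H2afx fell by 0.56 and H3f3a by 0.37. Of 16 histone chaperones, 1 rose and 4 fell; Asf1b rose by 0.51 and Asf1a fell by 0.71.

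Some other RNAs and markers moved with this contrast. Of RNAs that lack a poly(A) tail, 4 were tested. Rpph1, the RNA of RNase P, rose from 4.43 ± 1.87 to 20.04 ± 12.1 RPKM and Rmrp, the RNA of RNase MRP, from 1.54 ± 0.460 to 4.62 ± 2.39 (SD, n = 4). Their sum was 14.2 to 43.6 RPKM in Trim33-low libraries and 4.50 to 8.78 in Trim33-high ones. Rmrp alone overlapped between the groups, with 1.47 RPKM in 1 Trim33-low library against 2.05 in 1 Trim33-high library. Rnu73b went the other way, from 7.71 ± 1.52 to 1.26 ± 1.23 RPKM, and Terc did not pass. All 3 tested of 5 fibroblast markers were called higher in Trim33-low libraries, where the list summed to 10.6 to 41.7 RPKM against 5.84 to 6.80. The 4 two-cell-like markers were all called higher, summing to 4.99 to 13.8 RPKM against 0.0682 to 0.205, with Zscan4a and Zscan4c at 0 in the activin A libraries of Trim33-high and Zscan4d at 0 in its SB431542 libraries. Of the ES cell markers, 2 of 5 were called higher and 0 lower. Of 4 tested trophectoderm markers and 1 tested primitive endoderm marker, 0 were called. The part of these RNAs and markers in the histone result was not tested.

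Arsenite for 2 h went with lower levels of the core histone genes. The members summed to 117.6 and 106.1 RPKM in untreated cells and 76.4 and 65.99 after arsenite, a ratio of 0.637 with the groups apart. The ratios of class sums were 0.544 for H2A, 0.597 for H4, 0.647 for H2B and 0.655 for H3, each with the groups apart. Much of the H2A fall came from 1 gene, Hist3h2a. It held 21.9 and 17.4 of the 35.1 and 30.7 RPKM of H2A untreated, and 8.16 and 7.23 of 19.55 and 16.3 after arsenite. By cluster, the ratio was 0.405 for Hist3, 0.522 for Hist2, 0.554 for Hist4 and 0.725 for Hist1, and only the Hist4 sums overlapped. H1 alone was higher, with a ratio of 1.15. Its sums were 6.55 and 5.79 RPKM untreated and 7.03 and 7.15 after arsenite. Hist1h1c held 3.04 and 2.77 of these untreated and 3.80 in both arsenite libraries, so the rise rests largely on that gene. Its call was lost under several alternatives, given below. Of 27 members tested, 12 fell and 1 rose. Over all 12136 genes tested 67.7% were called, 27% lower and 40.7% higher. At an unadjusted p under 0.05 there were 14 members, against 70.8% of all genes. The groups were apart downwards for 13 tested members (34.6% of all genes) and upwards for 3 (49.9%). The median log2 change was -0.35 for tested members and 0.08 over all genes. Counting all members, 44 of 67 had the lower mean after arsenite, 15 the higher one and 8 are listed at 0. The fall called 2 of 5 tested H2A genes, 2 of 4 H2B, 3 of 7 H3 and 5 of 8 H4, and none of the 3 tested H1 genes.

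The Hist3 genes had the largest falls of H2A and H2B. Hist3h2a read 21.9 and 17.4 RPKM untreated and 8.16 and 7.23 after arsenite, from 540 and 422 reads down to 194 and 176. The fall was 1.24 ± 0.11 on the log2 scale (adjusted p = 4.43e-05). Hist3h2ba read 7.98 and 7.24 RPKM untreated and 3.56 and 3.12 after arsenite, and fell by 0.99 ± 0.09 (adjusted p = 5.38e-05). Both genes lie on the plus strand of chromosome 11, Hist3h2ba at 58948920 to 58949533 and Hist3h2a at 58954685 to 58956830. Of the words of these GENCODE models, 77.9% and 68.5% are their own. The treated libraries were below the untreated ones for both genes by more than the spread between replicates.

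Among H3 and H4 genes, Hist1h3c read 6.31 and 3.53 RPKM untreated and 2.09 and 1.96 after arsenite, a fall by 0.93 ± 0.20 (adjusted p = 0.00423). Hist1h3e read 6.22 and 5.29 RPKM against 3.87 and 1.78, a fall by 0.88 ± 0.23 (adjusted p = 0.011), which was not called without the filter on low values (adjusted p = 0.072). Hist2h4, the only tested gene of the Hist2 cluster, read 3.49 and 1.74 RPKM against 1.503 and 0.326, a fall by 0.95 ± 0.32 (adjusted p = 0.0299), which was not called without the first untreated or the second arsenite library. Hist1h4d read 4.14 and 3.30 RPKM against 1.39 and 2.16, a fall by 0.77 ± 0.15. The groups were apart in each case. The other falls were Hist1h2ag (0.76), Hist1h3g (0.76), Hist1h4b (0.71), Hist1h4n (0.64), Hist1h2bc (0.54; 13.1 and 14.7 RPKM against 9.80 and 8.74) and Hist1h4k (0.35). For Hist2h4, Hist1h2ag, Hist1h3g, Hist1h4b and Hist1h4n, fewer than 2 arsenite libraries reached 1. These genes passed the filter on low values only through the untreated libraries, so their calls are descriptions. Hist1h4n was not called without the first untreated or second arsenite library, and Hist1h4k without either untreated or the second arsenite library.

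Some abundant members did not fall. Hist1h1c read 3.04 and 2.77 RPKM untreated and 3.80 in both arsenite libraries, and rose by 0.30 ± 0.09 (adjusted p = 0.0161). That call was lost without the second untreated library or either arsenite library (adjusted p from 0.064 to 0.0724) and under quantile normalization (0.11, adjusted p = 0.306). Hist1h4i read 4.91 and 3.32 RPKM against 4.35 and 3.78, and Hist1h2ae 5.43 and 6.29 against 5.75 and 4.003; the groups overlapped and neither passed. Hist1h1e, a further H1 gene, read 1.58 and 0.749 RPKM against 0.629 and 1.31 and did not pass.

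**Figure D4:**
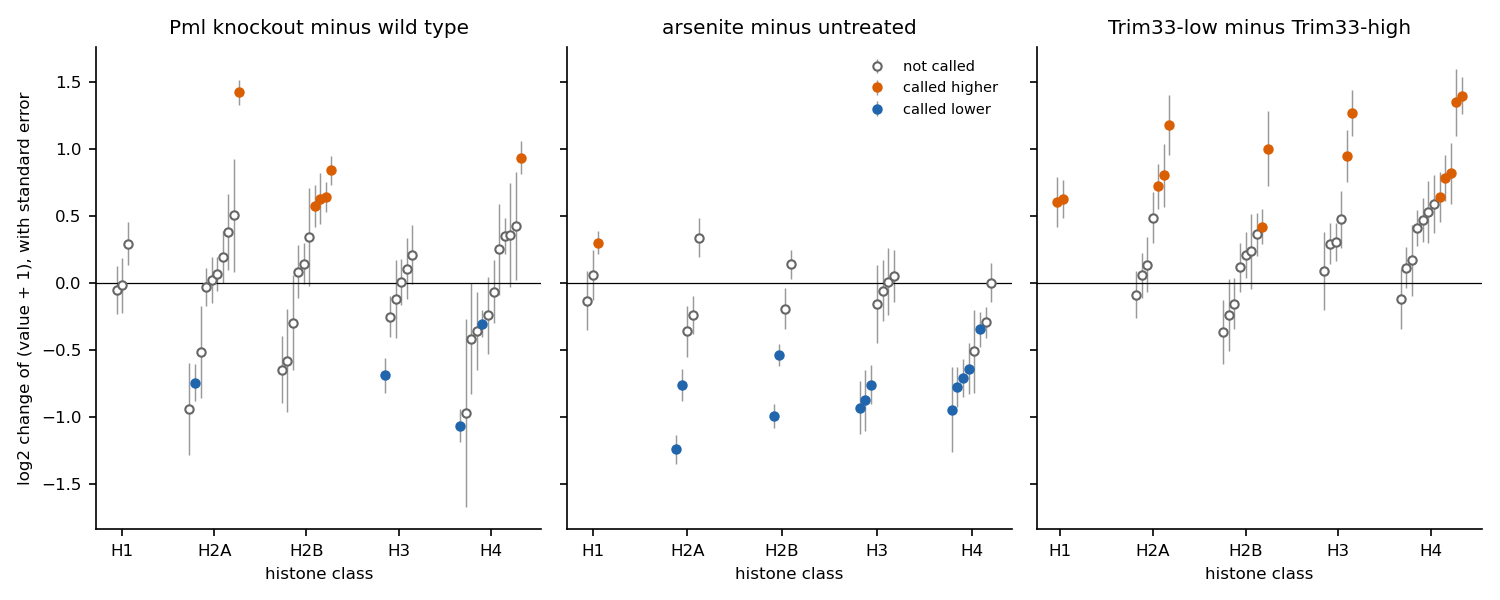
Log2 change of (value + 1) with its standard error for each tested member, by histone class, in the 3 comparisons; filled orange points were called higher, filled blue points lower and open points were not called. In the arsenite panel the 12 blue points are all core histone genes, in the Trim33 panel all 14 called genes are higher, and in the Pml panel 6 are higher and 4 lower.

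Histone variant genes outside these clusters fell with arsenite too: 10 of 11 tested fell and 0 rose. H2afz, the H2A.Z gene, fell from 675 ± 26.7 to 357 ± 4.41 RPKM, H3f3b, a gene of the replacement H3, from 735 ± 1.52 to 382 ± 15.8, H2afx from 405 ± 2.75 to 229 ± 0.458, and H1fx from 125 ± 6.89 to 57.3 ± 2.90 (SD, n = 2). Of 30 replication and S phase genes, 19 fell and 4 rose; Mcm7, a subunit of the replicative helicase, fell by 0.89, Gins2 by 0.72 and Pola1, of DNA polymerase alpha, by 0.67. Of 21 transcription and processing factors, 7 rose and 5 fell: Zfp473, which works with the U7 snRNP, rose by 0.50, Zcchc6, a uridylyl transferase, by 0.46 and Ncbp1 by 0.28, while Upf1 fell by 0.37 on the log2 scale. Slbp fell from 50.8 ± 2.83 to 44.4 ± 3.22 RPKM and Npat rose from 9.22 ± 0.629 to 12.01 ± 0.255 (both named after their values were seen). Of 16 chaperones, 4 rose and 7 fell; Hat1, a histone acetyltransferase, rose by 0.82, Ubn1 by 0.85 and Daxx, a chaperone of the replacement H3, by 0.59, and Nap1l1 fell by 0.53.

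Rmrp fell from 1.96 ± 0.834 to 0.272 ± 0.385 RPKM and Rpph1 from 2.17 ± 0.384 to 0.945 ± 0.338 with arsenite (SD, n = 2). The ES cell markers, all 5 called lower, summed to 2499 and 2534 RPKM untreated and 1109 and 1167 after arsenite at their lowest and highest. The trophectoderm list rose from 31.1 to 31.2 RPKM up to 92.4 to 94.1, with 3 of 3 tested called higher and Elf5 at 0 in both arsenite libraries. The primitive endoderm list went from 6.91 to 7.13 RPKM up to 10.6 to 11.5, with 2 of 3 tested called higher. In the fibroblast list 1 gene was tested and called lower, and in the two-cell-like list 0 genes were tested. The part of these RNAs and markers in the histone result was not tested.

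In Pml knockout cells the histone genes as a whole stood near the wild-type level, and a few single genes differed. The members summed to 160.3 and 152.9 FPKM in wild type against 174.5 and 158.1 in knockout, a ratio of 1.06 with the groups overlapping. Without Hist1h4i, which varied between replicates, the sums were 145.4 to 147.2 against 150.4 to 162.9 FPKM, apart at a ratio of 1.07. Of 41 members tested, 6 rose and 4 fell. Over all 11648 genes tested 35.5% were called, 16.6% higher and 18.9% lower, so a smaller share of the members than of all genes was called. The groups were apart upwards for 7 tested members (31.4% of all genes) and downwards for 6 (38%). The median log2 change was 0.02 for tested members and -0.02 over all genes. Without the first knockout library the count was 20 (9 higher and 11 lower, 8 of them among the 10).

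The Hist3 cluster stood out by size. Hist3h2a read 3.31 and 3.37 FPKM in wild type against 9.91 and 11.4 in knockout, a rise of 1.42 ± 0.09 on the log2 scale (adjusted p = 1.33e-05). Hist3h2ba read 2.49 and 2.07 FPKM against 4.54 and 5.19, a rise of 0.84 ± 0.11 (adjusted p = 0.000684). Both knockout libraries were above both wild-type libraries for each gene, and the 2 genes together had a ratio of 2.76. Hist4h4, the single Hist4 gene, went the other way. It read 2.56 and 2.60 FPKM in wild type against 0.851 and 0.586 in knockout, a fall by 1.06 ± 0.12 (adjusted p = 0.000301). It passed the filter on low values only through the wild-type libraries. Its GENCODE model, of 2863 bases against a RefSeq length of 439, was 91.5% unique in sequence. The Hist1 cluster had a ratio of 0.996. Hist2, with only 1 of its 10 genes tested and 0 called, had a ratio of 1.65. Its sums were apart, at 2.78 to 4.30 FPKM in wild type against 5.08 to 6.58 in knockout.

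**Figure D5:**
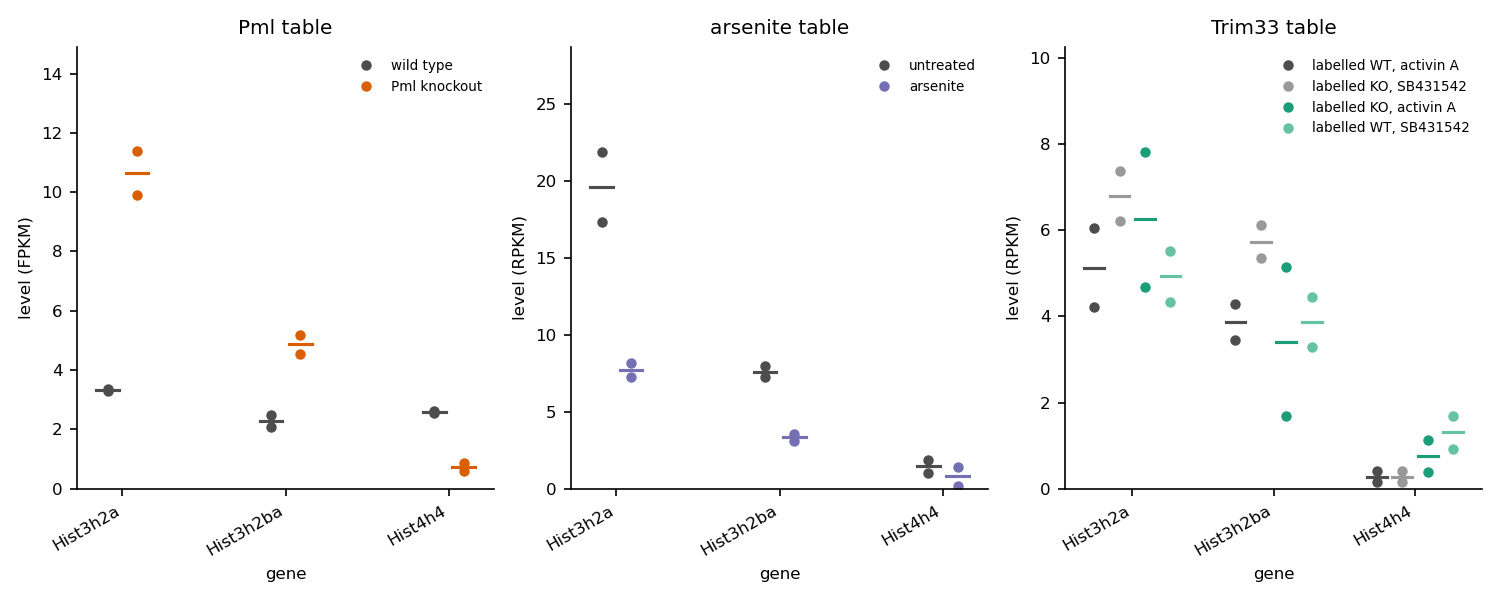
Levels of Hist3h2a, Hist3h2ba and Hist4h4 in every library (points) with group means (short lines), in FPKM for the Pml table and RPKM for the others, each panel with its own vertical axis. The Hist3 genes are higher in Pml knockout than wild type, lower after arsenite, and overlap between Trim33-low (green) and Trim33-high (grey) libraries.

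Within the Hist1 cluster, 4 of 37 tested genes rose and 3 fell in the knockout, against 16.6% and 18.9% of all genes. Hist1h4c read 0.800 and 0.809 FPKM in wild type against 2.16 and 2.74 in knockout, a rise of 0.93 ± 0.12 (adjusted p = 0.000676). It passed the filter on low values only through the knockout libraries. The H2B genes Hist1h2bl (1.34 and 1.64 against 2.97 and 2.76 FPKM), Hist1h2bb (1.79 and 0.809 against 2.67 and 2.27) and Hist1h2be (1.73 and 2.27 against 4.13 and 2.84) rose by 0.64, 0.63 and 0.57. The latter pair lost its calls when single libraries were left out: Hist1h2bb without the second wild-type library (adjusted p = 0.126), Hist1h2be without the first wild-type library (0.109) or the first knockout library (0.0863). Hist1h2an read 1.47 and 1.246 FPKM against 0.544 and 0.280 and fell by 0.74 ± 0.14 (adjusted p = 0.00386). It passed that filter only through the wild-type libraries, and Hist1h2bb, of the rises above, only through the knockout libraries. Hist1h3c read 8.71 and 9.73 FPKM against 6.27 and 4.52 and fell by 0.69 ± 0.13 (adjusted p = 0.00433), which was not called without the filter on low values (adjusted p = 0.0641). Hist1h4d read 9.37 and 11.6 FPKM against 8.26 in both knockout libraries and fell by 0.30 ± 0.10 (adjusted p = 0.0466), a call lost without the second wild-type library or either knockout library (adjusted p from 0.0889 to 0.224).

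Of the 2 most abundant members of each class in the Pml table, Hist3h2a, Hist1h3c and Hist1h4d were called, as given above. The other 7 did not pass, and their groups overlapped. Hist1h2bc read 16.6 and 11.5 FPKM in wild type against 11.96 and 18.03 in knockout, Hist1h4i 13.2 and 7.50 against 11.6 and 7.72, and Hist1h2ae 10.8 and 8.10 against 9.14 and 10.7. Hist1h3i read 11.1 and 8.76 FPKM against 9.62 and 6.80, Hist1h2bk 4.75 and 4.65 against 4.26 and 6.53, Hist1h1c 5.06 and 5.28 against 5.22 and 8.16, and Hist1h1a 1.03 and 2.29 against 1.599 and 1.499. By class, the sums were apart and higher in knockout for H1 (ratio 1.15), H2A (1.31) and H2B (1.22), and overlapped for H3 (0.898) and H4 (0.903). Most of the H2A rise came from Hist3h2a. It held 3.31 and 3.37 of the 28.1 and 26.65 FPKM of H2A in wild type, and 9.91 and 11.4 of 35.3 and 36.6 in knockout. The median log2 change of tested H2A genes was 0.04.

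Genes of DNA replication fell in the Pml knockout: 19 of 30 fell and 0 rose, against 18.9% of all genes called lower. E2f2, a cell cycle transcription factor, fell from 10.3 ± 0.168 to 4.25 ± 0.570 FPKM, Gins2 from 75.2 ± 2.01 to 50.8 ± 2.31, Mcm3 from 244 ± 1.58 to 186 ± 1.52 and Mcm6 from 223 ± 8.04 to 167 ± 1.87 (SD, n = 2). Of 21 transcription and processing factors, 1 rose and 4 fell: Upf1 fell by 0.40, Lsm10 by 0.25, Srrt by 0.19 and Slbp by 0.22 on the log2 scale (85.4 ± 5.19 to 73.2 ± 0.242 FPKM). Of 11 variants, 4 rose and 5 fell; H1f0, a linker histone of resting cells, rose by 0.67 and H2afx by 0.20, and H2afy fell by 0.31 and H2afz by 0.24. Of 16 chaperones, 1 rose and 5 fell; Ssrp1, of the FACT complex, fell by 0.37, Chaf1b, of CAF-1, by 0.43 and Asf1b by 0.23, and Rbbp7 rose by 0.28. Rmrp rose from 3.21 ± 0.0622 to 5.10 ± 0.506 FPKM.

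Marker lists differed between the Pml groups as well. The trophectoderm list summed to 30.8 to 33 FPKM in wild type and 610 to 629 in knockout, with 4 of 4 tested higher, and the two-cell-like list to 3.74 to 4.25 against 16.6 to 16.9, with 4 of 4 higher. The fibroblast list summed to 7.87 to 8.33 FPKM against 19.3 to 20.9, with 3 of 4 tested higher and 1 lower, and no marker of these lists was at 0 in either group. The primitive endoderm list went the other way, from sums of 5.01 to 5.39 FPKM in wild type to 1.23 to 1.75 in knockout, with 2 of 2 tested lower. Their part in the results for single histone genes was not tested.

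Side by side, the same gene could go different ways in the 3 comparisons, which share no library. Hist3h2a rose by 1.42 in the Pml knockout, fell by 1.24 with arsenite and stood at -0.09 on the log2 scale, not called, in the Trim33 contrast. Hist1h3c fell by 0.69 in the Pml knockout and by 0.93 with arsenite and rose by 0.94 in Trim33-low libraries, where its groups overlapped; its Pml call was lost without the filter on low values. Hist1h4i was called in the Trim33 table only, and its level there, 17.1 to 63.8 RPKM, was above the 3.32 to 4.91 RPKM of the arsenite table, although the tables were normalised separately and levels are not tested across them.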

How the data were processed

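RNA-seq tables of mouse ES cells were analysed for the histone genes. The Pml table holds FPKM values deposited by the authors, per the file headers. The arsenite table holds RPKM values deposited by the authors, per the file headers; the deposited Trim33 table names no unit, and its values behave as RPKM. Per the submitters' processing notes, the build was mm10 and the tools included featureCounts 2.0.1, Bowtie2 2.3.3, DESeq2, SAMtools 1.9 and FastQC 0.11.5; their roles and any use of strand are not stated there.

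From these values, log2(value + 1) was fitted with limma 3.58.1 in R 4.3.3 (intensity trend, two-sided, Benjamini-Hochberg over all genes tested, called at an adjusted p under 0.05). Genes needed 1 in at least 2 libraries, and 27 names turned into dates were left out of each table. Because 1 is added to each value before the log2, changes of low genes come out too small. Residual degrees of freedom were 2 in the tables of 4 libraries and 4 in the Trim33 table, whose contrasts were taken between labelled groups. Reads were recovered from the RPKM steps, of which 90.2 to 94.4% were whole within 0.05. No count test was run on them.

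The members and the gene lists were chosen with earlier results of these data known, so lists are described by counts and medians only. Values in every library are given for the 2 most abundant members of a class in a table, and for up to 5 called members with the largest rise and fall whose groups did not overlap. Of every other gene list, up to 4 genes with the smallest p are eligible. Other members are named by their call. Alternatives changed the pseudocount, filter, scaling, variance trend, replicate block, libraries, samples in the fit and sequence uniqueness. The fit was tested on simulated data. Protein sequences were not used here.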

Additional observations from a re-analysis of the deposited data

How the results depend on the processing

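Of the values of single histone genes under the alternatives, 643 kept their direction and side of the threshold, 8 passed it newly, 109 no longer passed it and 21 changed sign. Requiring a mean of at least 2 left 6 called members in the Pml table, 7 with arsenite, 7 in the Trim33 contrast and 2 with activin A, and keeping only members at least 80% unique left 4, 3, 4 and 1, with 0 for SB431542; both test fewer genes. Quantile normalization gave 9 in the Trim33 contrast and 3 with activin A, where no filter gave 2 and fitting only the groups compared gave 10; the cause was not tested. Leaving out 1 library gave 10 to 20 called members in the Pml table, 9 to 15 with arsenite, 10 to 14 in the Trim33 contrast, 1 to 7 with activin A and 1 to 6 with SB431542. With a replicate block, 15 members were called in the Pml table against 10, 15 in the Trim33 contrast against 14, 8 with activin A against 5 and 3 with SB431542 against 3. The labels tie no number to a shared culture or day. Deviations of same-numbered libraries correlated at 0.02 in the Pml table. In the Trim33 table they correlated at 0.6 between the Trim33-low groups and 0.37 between the Trim33-high groups. Between a low and a high group the values were 0.21, 0.19, -0.14 and -0.14. Whether the numbers pair the libraries is not settled. If they do, the 4 libraries of a Trim33 level are not independent, which the SDs and the fit without a block leave out. No paired analysis was possible for arsenite because the untreated columns match the labels of their group but of no numbered sample; "first" and "second" only name those columns. Among all genes called with arsenite, 4939 of 8221 were higher, 4265 of 8180 after median-ratio scaling and 3906 of 7872 after quantile normalization.

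The values that changed sign all belonged to genes that were not called. In the Pml table Hist1h1a became 0.01 with a pseudocount of 0.1, 0 with median-ratio scaling, 0.33 without the second wild-type and 0.01 without the second knockout library. Hist1h4i became 0.3 without the first wild-type and 0.2 without the second knockout library. Without the second wild-type or second knockout library, Hist1h2ae became -0.12 or -0.03 and Hist1h2bc -0.16 or -0.19, and Hist1h2bk became -0.11 without the latter. With arsenite Hist1h4i became -0.05 with median-ratio scaling, -0.19 with quantile normalization, -0.22 without the second untreated and -0.08 without the first arsenite library, and Hist1h1e 0.15 without the first untreated and 0.12 without the first arsenite library. In the Trim33 contrast Hist3h2a became 0.07 without the second library labelled knockout with activin A and 0.02 without the first labelled wild type with activin A, and Hist1h2bc -0.01 without the second labelled knockout with SB431542 and -0.05 without the first labelled wild type with SB431542. Over all fits that left out 1 library, the ranges in the Pml table were -0.37 to 0.33 for Hist1h1a, -0.12 to 0.26 for Hist1h2ae, -0.19 to 0.36 for Hist1h2bc, -0.11 to 0.4 for Hist1h2bk and -0.43 to 0.3 for Hist1h4i. With arsenite they were -0.41 to 0.15 for Hist1h1e and -0.22 to 0.23 for Hist1h4i, and in the Trim33 contrast -0.25 to 0.07 for Hist3h2a and -0.05 to 0.28 for Hist1h2bc. The cause was not tested. Low read numbers limit single members, and the depth of the Pml table is unknown.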
